A study of Homo sapiens with 4 samples.

Results

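Epithelial and mesenchymal identity genes were followed in SW620, a human colorectal cancer line in wide use that was grown from a lymph node metastasis, with and without exposure to hydrogen peroxide (H2O2), an oxidant. The set was taken by gene symbol and holds 10 of the 19389 protein-coding genes measured, 4 of them epithelial (CDH1, EPCAM, ESRP1 and ESRP2) and 6 mesenchymal (VIM, ZEB1, SNAI1, SNAI2, TWIST1 and TWIST2). All 10 had a row, and 9 reached the abundance needed for a test. There were 2 groups of 2 libraries, control SW620 cells and SW620 cells treated with H2O2 for 2 days, and the title of the series calls the treated cells senescent. The dose is 150 µM by the sample labels and 150 mM by the series' design text. All libraries came from this single line. Separate cultures are not stated, so the p-values speak for the spread among these 4 libraries alone, and that spread may be technical.

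Epithelial cells are held together by E-cadherin, the product of CDH1, and carry the adhesion molecule EPCAM on their surface. ESRP1 and ESRP2 are RNA-binding proteins that select the epithelial exons of many transcripts. ZEB1, SNAI1 and SNAI2 are zinc-finger proteins that bind E-boxes and repress CDH1, TWIST1 and TWIST2 are basic helix-loop-helix factors, and VIM encodes vimentin, the intermediate filament of mesenchymal cells. Carcinoma cells can shift from the epithelial to the mesenchymal set, wholly or in part, and can then express both.

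SW620 libraries of both groups held abundant mRNA of epithelial EPCAM and mesenchymal VIM at once. The mesenchymal transcription factors of the set stood at most at 13.1 FPKM in any library, and the N-cadherin gene CDH2 was listed at 0. The contrast of CDH1 and the ESRP genes with these transcription factors overlapped between the groups. CDH1 lay higher in both treated libraries, 1.60 times the control mean, while ESRP1 and ESRP2 overlapped between the groups. EPCAM lay lower as deposited, but its groups overlapped once each library was rescaled to an equal total. Among the mesenchymal genes SNAI1 and ZEB1 lay slightly higher, the libraries of SNAI2 and VIM overlapped, TWIST2 stood at most at 0.372 FPKM in controls and at least at 1.15 FPKM in treated libraries, and TWIST1 was listed at 0. Values are in FPKM, the authors' fragment numbers scaled by transcript length and by mapped fragments, and changes are differences of log2(FPKM + 1) tested by limma. No member passed limma's test adjusted over the 11318 genes tested (0%, 0 genes at an adjusted p under 0.05, where 1260 had an unadjusted p under 0.05). At an unadjusted p under 0.05, where 11.1% of all genes lay, there were 2 of the 9 members tested, CDH1 and TWIST2. The libraries of the groups did not overlap in 5 of the 9 members, 4 higher and 1 lower, beside 43.2% of all genes tested (19.3% higher and 24% lower). TWIST2 entered the test only through its treated libraries and could hardly have been lower. Without it, 4 of 8 did not overlap and CDH1 alone had an unadjusted p under 0.05, both shares near those of all genes.

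**Figure D1:**
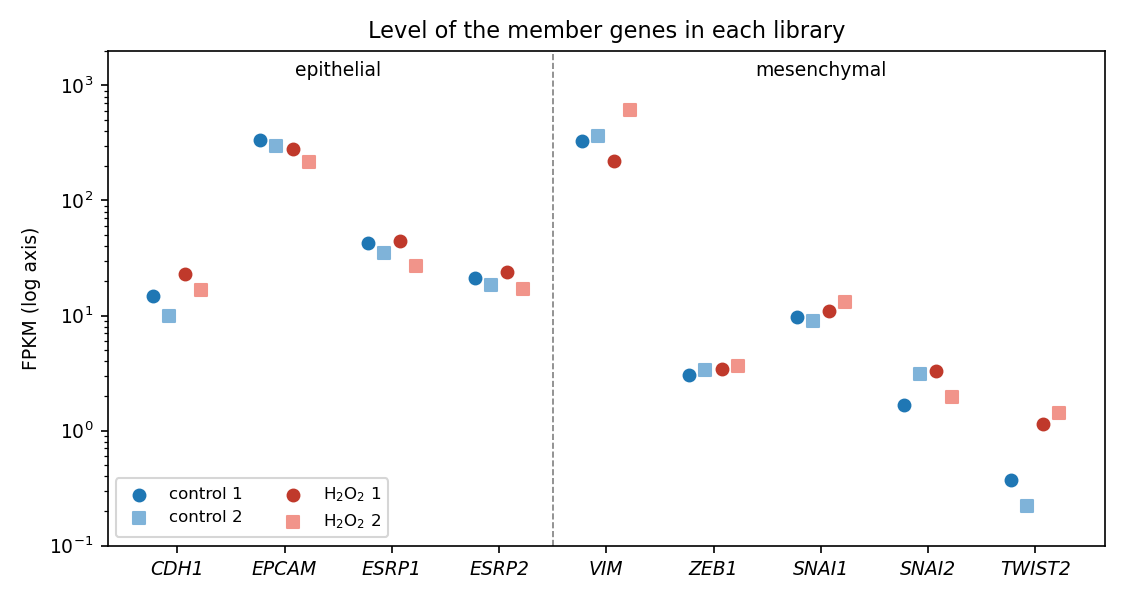
FPKM on a log axis of 9 member genes in each of the 4 libraries, with circles for library 1 and squares for library 2 of a group, blue for controls and red for H2O2. TWIST1, listed at 0 in all 4 libraries, is not drawn. VIM and EPCAM stand highest in every library, and the treated VIM values of 218.2 and 612.6 lie on either side of both controls.

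Read depth is unknown because the table holds no counts. Summed FPKM lay between 574782 and 695837 per library and was lower in both treated libraries, so rescaling to an equal total per library (TPM) moved the median log2 change of all genes from -0.03 to 0.14, a shift of 0.17. Of 10 markers of colon epithelium, 5 were at 1 FPKM or more in every library, with KRT8 between 2670 and 3620 FPKM, while the colon genes CDX1, KRT20, CDH17, LGALS4 and GPA33 were below 1 FPKM in every library. The summed level of 10 fibroblast markers was 5.77 and 10.7 FPKM in controls and 7.07 and 15.3 in treated libraries, with FAP at 0 and COL1A2, COL3A1 and PDGFRA at most 0.0274 in each library. Others of this list were higher in treated cells, THY1 at 0.361 and 0.159 against 1.37 and 1.93 FPKM and ACTA2 at 0.255 and 0.385 against 0.666 and 2.28 FPKM, and COL1A1 and LUM reached 3.16 and 6.94 FPKM. The summed level of 7 endothelial markers was 8.94 and 6.46 in controls and 13.7 and 15.9 in treated libraries, with CDH5 at most 0.0403, TIE1 at 0.0941 and 0.0991 against 2.21 and 1.67 FPKM, and EGFL7 at 8.58 and 6.24 against 11 and 13.7 FPKM. That of 6 leukocyte markers was 5.16 and 6.68 in controls and 12.5 and 36.7 in treated libraries, with CD68 and LYZ making up most of it and PTPRC at most 0.00822. Their part in the results was not tested. In these bulk samples, fewer cells of a type and less RNA per cell cannot be told apart.

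Levels of the members can be ordered because FPKM are per transcript length. In controls the order by mean FPKM was VIM, EPCAM, ESRP1, ESRP2, CDH1, SNAI1, ZEB1, SNAI2, TWIST2 and TWIST1. VIM and EPCAM were level within their spread in controls (326.0 and 364.7 FPKM against 336.0 and 295.0), as were ZEB1 and SNAI2 (3.05 and 3.33 against 1.67 and 3.08). ESRP2 stood above CDH1 in both controls, and their values overlapped in treated libraries. EPCAM exceeded at least 98.1% of all genes in each library and VIM at least 98.3%, whereas ZEB1 lay near the middle of the table, above 50.4% to 51.1% of genes.

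CDH1 (ENSG00000039068), on the forward strand of chromosome 16 from 68737225 to 68835548 (GRCh38), encodes the calcium-dependent adhesion molecule of adherens junctions. It was measured at 14.8 and 9.93 FPKM in control libraries 1 and 2 and at 23.0 and 16.6 FPKM in treated libraries 1 and 2. Both treated values lay above both controls, though the lower treated value was close to the higher control. The means were 12.4 ± 3.46 and 19.8 ± 4.50 FPKM (SD, n = 2). On the log2 scale the change was 0.65 ± 0.25 (SE; 95% interval 0.04 to 1.25; limma adjusted p = 0.428). Without control 2 it was 0.38, without control 1 0.91, without treated 1 0.42 and without treated 2 0.87. Its size thus depended on which library was left out, in either group. The rank of CDH1 among all genes was likewise higher in treated libraries, above 79.7% and 74.4% of genes, than in controls, above 72.0% and 65.2%.

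EPCAM (ENSG00000119888), on the forward strand of chromosome 2 from 47345158 to 47387601, encodes a surface glycoprotein that links epithelial cells to each other and can be cleaved to release a signalling tail. It stood at 336.0 and 295.0 FPKM in controls and at 278.1 and 215.1 FPKM in treated libraries. In deposited FPKM both treated libraries lay below both controls, the nearest pair differing by little. Rescaled to TPM the values were 482.8 and 446.4 in controls and 483.8 and 348.2 in treated libraries, so the groups overlapped. The means were 315.5 ± 29 and 246.6 ± 44.5 FPKM (SD, n = 2). Its log2 change was -0.36 ± 0.20 (SE; 95% interval -0.85 to 0.12; limma adjusted p = 0.582). It was -0.18 after rescaling to TPM, -0.11 after quantile normalization, -0.18 without treated 2, -0.55 without treated 1, -0.27 without control 1 and -0.46 without control 2. Relative to the median of all genes it was -0.33 as deposited and -0.32 as TPM. The 2 surface molecules thus lay on opposite sides in deposited FPKM, though EPCAM overlapped as TPM. The ratio of EPCAM to CDH1, which does not depend on library scaling, was 22.7 and 29.7 in controls and 12.1 and 12.9 in treated libraries.

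ESRP1 (ENSG00000104413), on the forward strand of chromosome 8 from 94641074 to 94707466, encodes the more abundant of the paired splicing regulators here. It stood at 42.9 and 35.0 FPKM in controls and at 44.5 and 27.1 FPKM in treated libraries. The treated libraries were the highest and the lowest of the 4, so the groups overlapped. The log2 change was -0.15 ± 0.26 (SE; 95% interval -0.79 to 0.48; limma adjusted p = 0.875), and its sign turned without treated 2 (0.20) and under TPM (0.029). Relative to the median of all genes the change was -0.12 as deposited and -0.11 as TPM. ESRP2 (ENSG00000103067), on the reverse strand of chromosome 16 from 68229111 to 68238102, stood at 21.1 and 18.3 FPKM in controls and at 24 and 17.1 FPKM in treated libraries. Here too the treated libraries were the highest and the lowest. Its log2 change was 0.04 ± 0.21 (SE; 95% interval -0.47 to 0.55; limma adjusted p = 0.968), and it was -0.19 without treated 1 and -0.056 without control 2. The deposited locus of ESRP2 runs from 68085344 to 68238102 and takes in NFATC3, a coding gene on the other strand that shares 149 bases with it, so reads near that end could have been split between them. The ratio of ESRP1 to ESRP2 was 2.03 and 1.91 in controls and 1.86 and 1.58 in treated libraries. The values are sums over a gene's transcripts and do not show which exons were used.

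**Figure D2:**
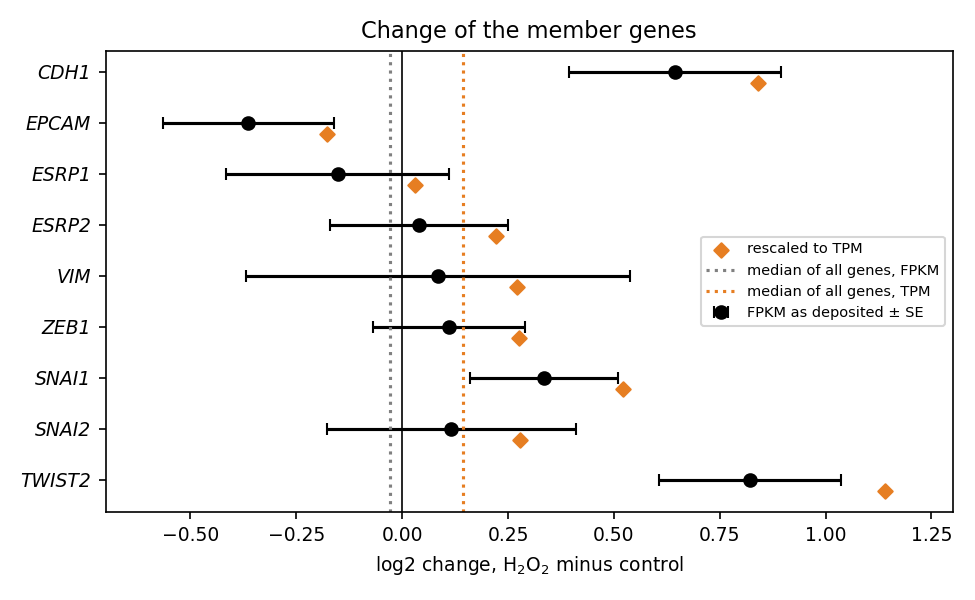
log2 change of log2(FPKM + 1) between H2O2 and control for 9 member genes, as black points with SE bars for the deposited FPKM and orange diamonds after rescaling each library to TPM. Dotted lines mark the median of all genes tested, -0.03 and 0.14. The changes run from -0.36 for EPCAM to 0.82 for TWIST2 as deposited, and from -0.18 to 1.14 for the same genes as TPM.

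Promoter windows of 3 members, TWIST2, VIM and ZEB1, were found in the RefSeq table (GRCh38.p14), and all 3 are shown. The other members, CDH1 among them, had no window there. TWIST2 had the largest change, VIM the widest spread between treated libraries, and ZEB1 is a factor that itself binds E-boxes. Each is the forward strand for the 250 bases before a start, and for ZEB1, with 7 starts in the table, the one nearest to the start of the deposited locus. Capitals mark the E-box CANNTG and the GC box GGGCGG, the latter searched on both strands as GGGCGG or CCGCCC.
ZEB1 promoter, chr10:31318966-31319215: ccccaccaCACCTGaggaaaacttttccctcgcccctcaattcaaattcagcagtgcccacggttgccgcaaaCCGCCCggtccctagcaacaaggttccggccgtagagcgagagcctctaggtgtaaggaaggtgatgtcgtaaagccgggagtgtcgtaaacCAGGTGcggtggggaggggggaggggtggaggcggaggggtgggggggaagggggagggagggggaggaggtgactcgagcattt
VIM promoter, chr10:17227991-17228240: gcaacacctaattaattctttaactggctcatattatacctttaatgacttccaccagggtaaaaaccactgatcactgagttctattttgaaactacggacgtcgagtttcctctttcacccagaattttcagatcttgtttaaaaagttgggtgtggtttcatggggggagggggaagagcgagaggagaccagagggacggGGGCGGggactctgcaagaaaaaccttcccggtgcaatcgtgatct
TWIST2 promoter, chr2:238847835-238848084: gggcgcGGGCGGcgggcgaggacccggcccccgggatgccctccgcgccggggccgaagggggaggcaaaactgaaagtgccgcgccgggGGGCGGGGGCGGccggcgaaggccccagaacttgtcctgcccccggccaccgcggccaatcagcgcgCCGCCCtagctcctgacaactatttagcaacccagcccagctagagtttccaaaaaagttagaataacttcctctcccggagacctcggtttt
The ZEB1 window held 2 E-boxes, beginning 242 and 85 bases before the start, and both had the form CACCTG or CAGGTG, the same letters read from either strand. Of the 35116 windows of this length in the table, 61.8% held an E-box and 17.5% one of that form. The VIM and TWIST2 windows held no CANNTG. GC boxes numbered 4 in the TWIST2 window, 1 in the VIM window and 1 in the ZEB1 window, and 42.6% of all windows held at least 1. Bases G and C made up 68.4% of the TWIST2 window, 62.4% of the ZEB1 window and 46% of the VIM window, beside a median of 58% over all windows.

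ZEB1 (ENSG00000148516), on the forward strand of chromosome 10 from 31318495 to 31529814, was the steadiest of the repressors. It stood at 3.05 and 3.33 FPKM in controls and at 3.40 and 3.65 FPKM in treated libraries. The treated values lay just above the controls, by less than the gap between the controls at the nearest point. By limma the log2 change was 0.11 ± 0.18 (SE; 95% interval -0.32 to 0.55; limma adjusted p = 0.865), and it was -0.032 after quantile normalization. SNAI1 (ENSG00000124216), on the forward strand of chromosome 20 from 49982999 to 49988886, encodes Snail, a short-lived repressor. It stood at 9.65 and 8.88 FPKM in controls and at 10.9 and 13.1 FPKM in treated libraries. Both treated values exceeded both controls, and the means were 9.27 ± 0.545 and 12 ± 1.5 FPKM (SD, n = 2). The log2 change was 0.34 ± 0.18 (SE; 95% interval -0.09 to 0.76; limma adjusted p = 0.555), 0.22 without treated 2 and 0.52 after rescaling to TPM.

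SNAI2 (ENSG00000019549), on the reverse strand of chromosome 8 from 48917604 to 48921740, encodes Slug, a relative of Snail. It stood at 1.67 and 3.08 FPKM in controls and at 3.32 and 1.97 FPKM in treated libraries. The spread within each group covered most of the range of the other, and the groups overlapped. Its log2 change was 0.12 ± 0.29 (SE; 95% interval -0.60 to 0.83; limma adjusted p = 0.925), and its sign turned without control 1 (-0.19), without treated 1 (-0.155) and after quantile normalization (-0.052).

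TWIST2 (ENSG00000233608), on the forward strand of chromosome 2 from 238848032 to 238910543, was listed at 0.372 and 0.219 FPKM in controls and at 1.15 and 1.42 FPKM in treated libraries. The treated values were above both controls, and all 4 were low. Only the treated values reached the 1 FPKM needed for a test. The means were 0.295 ± 0.108 and 1.29 ± 0.189 FPKM (SD, n = 2). The log2 change was 0.82 ± 0.21 (SE; 95% interval 0.30 to 1.34; limma adjusted p = 0.309). At this level its size followed the pseudocount, 1.83 with a pseudocount of 0.1 and 0.25 with 5. TWIST1 (ENSG00000122691), on the reverse strand of chromosome 7, was listed at 0 in all 4 libraries and was not tested, and a 0 in this table can also be a failed estimate.

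VIM (ENSG00000026025), on the forward strand of chromosome 10 from 17228259 to 17237593, was among the most abundant mRNAs in these epithelial cancer cells. It stood at 326.0 and 364.7 FPKM in controls and at 218.2 and 612.6 FPKM in treated libraries. Treated 1 lay below both controls and treated 2 above both, 2.81 times treated 1, while the controls differed by 1.12 times. A difference between treated libraries of at least that size on the log2 scale was found in 0.733% of the genes tested. On the log2 scale the change was 0.08 ± 0.45 (SE; 95% interval -1.01 to 1.18; limma adjusted p = 0.970), and it was 0.83 without treated 1 and -0.66 without treated 2, neither past the threshold (adjusted p = 0.0971 and 0.132 by limma). In the same treated library 2, the summed leukocyte, fibroblast and endothelial markers were also at their highest, at 36.7, 15.3 and 15.9 FPKM. LYZ stood there at 18.4, CD68 at 17.7, LUM at 6.94, ACTA2 at 2.28 and THY1 at 1.93 FPKM, each its highest value. Others of these lists peaked elsewhere. COL1A1 had 3.06 there and 3.16 FPKM in control 2, and treated 1 was higher for PDGFRB (1.71 against 1.0) and TIE1 (2.21 against 1.67). PTPRC, FAP and CD3E were at 0 in treated 2. The part of these markers in the VIM value was not tested.

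The contrast between the sets was then taken within each library. Library scaling cancels in the ratios of FPKM. In differences of mean log2(FPKM + 1) it cancels only in part, because of the pseudocount and the low level of several factors. The mean log2(FPKM + 1) of CDH1, ESRP1 and ESRP2 minus that of all 5 mesenchymal transcription factors was 3.17 and 2.75 in controls and 3.13 and 2.60 in treated libraries. Treated 1 lay between the controls and treated 2 below both. Without TWIST1, which was listed at 0, the difference was 2.81 and 2.36 against 2.68 and 2.16, with the libraries in the same order. Without either TWIST gene it was 2.35 and 1.81 against 2.30 and 1.84, and both treated values lay between the controls, so the place of treated 2 rested on TWIST2. The ratio of VIM to CDH1 was 22 and 36.7 in controls and 9.50 and 36.9 in treated libraries, so treated 1 had the lowest ratio and treated 2 the same level as control 2. The ratio of VIM to EPCAM ranged from 0.785 in treated 1 to 2.85 in treated 2, with 0.970 and 1.24 in controls. The ratio of CDH1 to SNAI1 was 1.53 and 1.12 in controls and 2.10 and 1.27 in treated libraries, and that of CDH1 to ZEB1 was 4.86 and 2.98 against 6.77 and 4.55. Both ratios overlapped between the groups. Of the 8 ratios computed, 4 did not overlap between the groups, where 43.2% of single genes tested did not. The pairs were picked for this report and share members, and no share over other pairs was computed, so the count is a description. The 4 were EPCAM to CDH1, ESRP1 to ESRP2, CDH1 to ESRP1 (0.346 and 0.284 against 0.516 and 0.614) and, by a narrow margin, SNAI1 to ZEB1 (3.17 and 2.67 against 3.22 and 3.58).

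**Figure D3:**
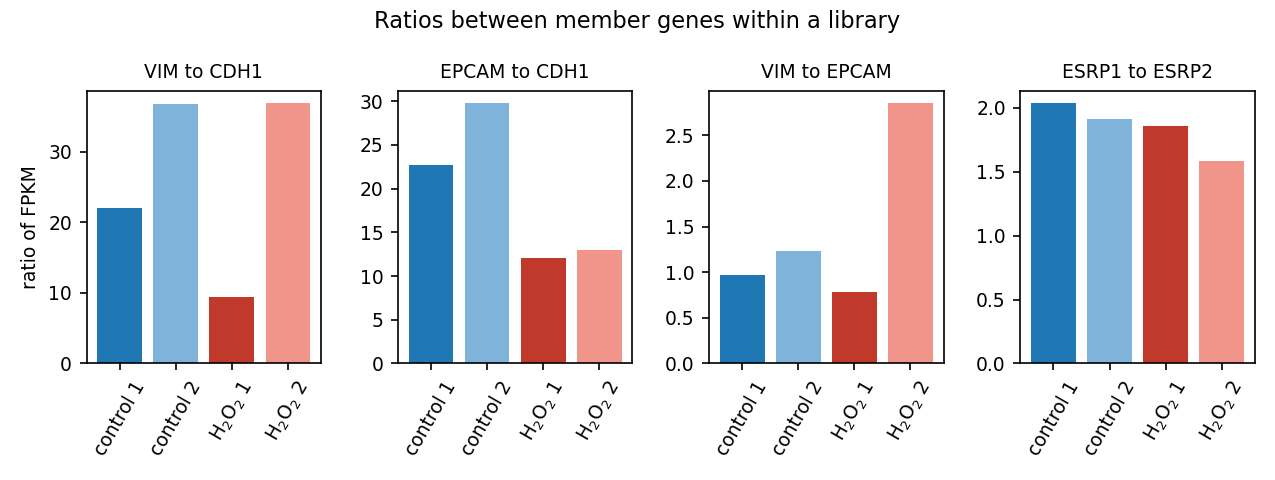
Ratio of FPKM of 2 member genes within each library, 1 bar per library from 0, controls in blue and H2O2 in red. The ratio of EPCAM to CDH1 is 22.7 and 29.7 in controls and 12.1 and 12.9 in treated libraries, while the ratio of VIM to CDH1 spans 9.50 to 36.9 within the treated group.

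Differences between the libraries of 1 group had a shape of their own. All 4 epithelial members were higher in library 1 than in library 2, in controls and in treated cells, a pattern found in 33% of all genes tested. The differences in log2(FPKM + 1) in controls were 0.53 for CDH1, 0.29 for ESRP1, 0.19 for ESRP2 and 0.19 for EPCAM, and in treated libraries 0.44, 0.70, 0.46 and 0.37. The median absolute difference of all genes was 0.16 between controls and 0.27 between treated libraries. VIM and ZEB1 had the opposite sign in both groups, as did 31.7% of all genes, by -0.16 and -0.10 in controls and -1.49 and -0.08 in treated libraries. SNAI1, SNAI2 and TWIST2 differed in sign between the groups. The labels do not say that the numbers mark a shared batch or culture.

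**Figure D4:**
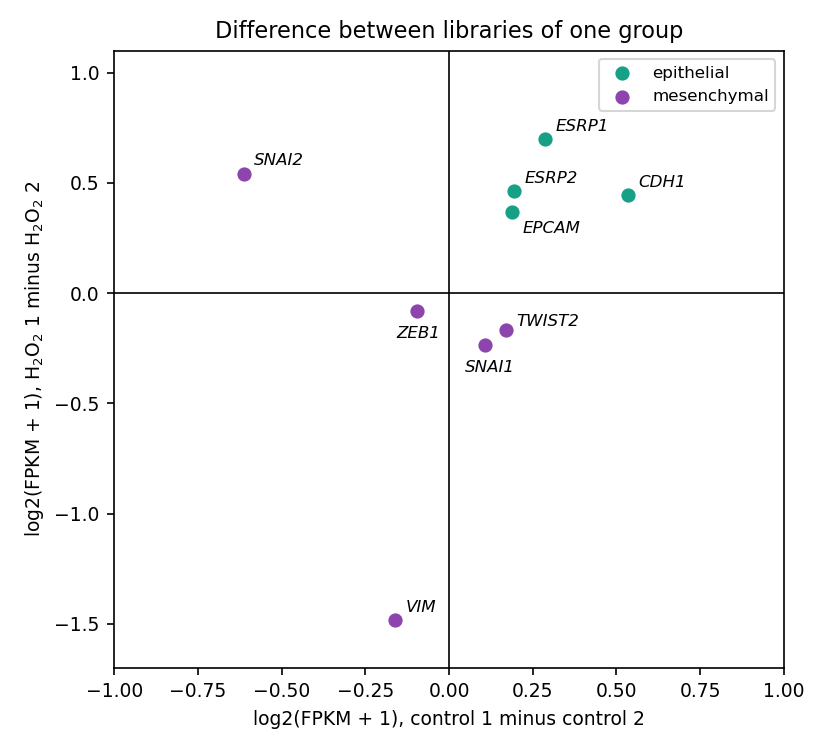
Difference in log2(FPKM + 1) between library 1 and library 2 of the control group (horizontal) and of the H2O2 group (vertical) for 9 member genes, with epithelial members in green and mesenchymal members in purple. The 4 epithelial members lie at the upper right, and VIM lies lowest at -1.49 in the treated group.

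Related genes were counted in 11 lists, of which 0 members passed limma's test over all genes in any list. Each list is set beside the background of all 11318 genes, in which an unadjusted p under 0.05 was found for 6.22% that lay higher and 4.91% that lay lower, 45.7% had a positive change, and the median log2 change was -0.03. Up to 4 tested members per list, those with the smallest p, are named, and those given are values, not calls. With 1 library left out, the median kept its sign in 3 lists (splicing factors, partners of TWIST and corepressors) and turned sign in 8.

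Junction genes, the neighbours of E-cadherin and EPCAM at the cell border, lay on both sides. Of 14 adherens junction and desmosome genes tested, changes were positive in 7 and negative in 7, the median was -0.02, and 1 gene, lower, had an unadjusted p under 0.05. That gene was PERP, a desmosome protein, at 173.5 and 185.8 FPKM in controls and 122.2 and 138.7 FPKM in treated libraries (limma adjusted p = 0.419). JUP, the plakoglobin gene, lay higher, at 49.7 and 40.6 against 59.0 and 60.3 FPKM, PKP2, a plakophilin, lower, at 25.1 and 25.7 against 20.8 and 18.7 FPKM, and CTNNB1, the beta-catenin that binds the tail of E-cadherin, had 201.8 and 234.0 against 133.6 and 200.5 FPKM. Of 22 tight junction and apical polarity genes, changes were positive in 10 and negative in 12, and the median was -0.01. The scaffold gene TJP1 lay higher, at 15 and 14.5 against 20.9 and 19.5 FPKM (limma adjusted p = 0.419), and the claudin CLDN3 lower, at 22.1 and 18.7 against 14.9 and 14.6 FPKM (limma adjusted p = 0.427). TJP3 had 1.25 and 0.891 against 1.5 and 2.38 FPKM, and PARD3, a polarity scaffold, 8.39 and 6.17 against 9.90 and 8.63 FPKM.

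Epithelial transcription factors numbered 10 tested, with positive changes in 5, negative ones in 5 and 0 at an unadjusted p under 0.05, with a median of -0.03. FOXA2 had 66.0 and 52.7 FPKM in controls and 43.9 and 46.7 FPKM in treated libraries, and EHF 13.8 and 17.3 against 20.2 and 18.5 FPKM. ELF3 had 15.2 and 14.9 against 14.1 and 10.3 FPKM, and KLF5 89.9 and 74.2 against 154.8 and 78.2 FPKM, a spread carried by treated 1. Of 15 partners and processing enzymes of EPCAM, 9 had a positive change, with a median of 0.07, and CD44, a surface receptor for hyaluronan, was the 1 at an unadjusted p under 0.05. CD44 had 2.38 and 2.58 FPKM in controls and 3.40 and 8.47 FPKM in treated libraries (limma adjusted p = 0.439), so treated 2 stood apart, as for VIM. The protease BACE1 had 13.7 and 12.3 against 17.2 and 14.7 FPKM, and the sheddase ADAM17 10.5 and 9.33 against 12.0 and 11.3 FPKM.

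Splicing factors that act with or against the ESRP proteins mostly lay lower. Of 12 tested, 9 had a negative change, and 3, each of them lower, had an unadjusted p under 0.05. The median was -0.31, or -0.17 without control 2 and -0.13 after rescaling to TPM, where the median of all genes was 0.14. HNRNPM, a factor known to compete with ESRP1 on CD44, had 305.9 and 258.6 FPKM in controls and 199.7 and 165.8 FPKM in treated libraries (limma adjusted p = 0.352). RBM47, an epithelial splicing factor, had 12.3 and 14.4 against 9.81 and 8.57 FPKM, and SRSF1, a general activator of exons, 335.4 and 349.5 against 266.1 and 216.4 FPKM. PTBP3 had 33.0 and 37.1 against 28.6 and 25.9 FPKM. A difference between these factors and the ESRP genes, whose libraries overlapped, was not tested.

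Genes with ESRP-dependent exons numbered 14 tested, 8 with a positive change and a median of 0.07, and 3 higher genes and 1 lower gene had an unadjusted p under 0.05. FGFR3, a growth factor receptor, had 1.82 and 2.19 against 3.43 and 5.70 FPKM, and MAGI1, a junction scaffold, 13.1 and 12.3 against 9.05 and 7.86 FPKM. CD44 was also among the genes at an unadjusted p under 0.05.

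**Figure D5:**
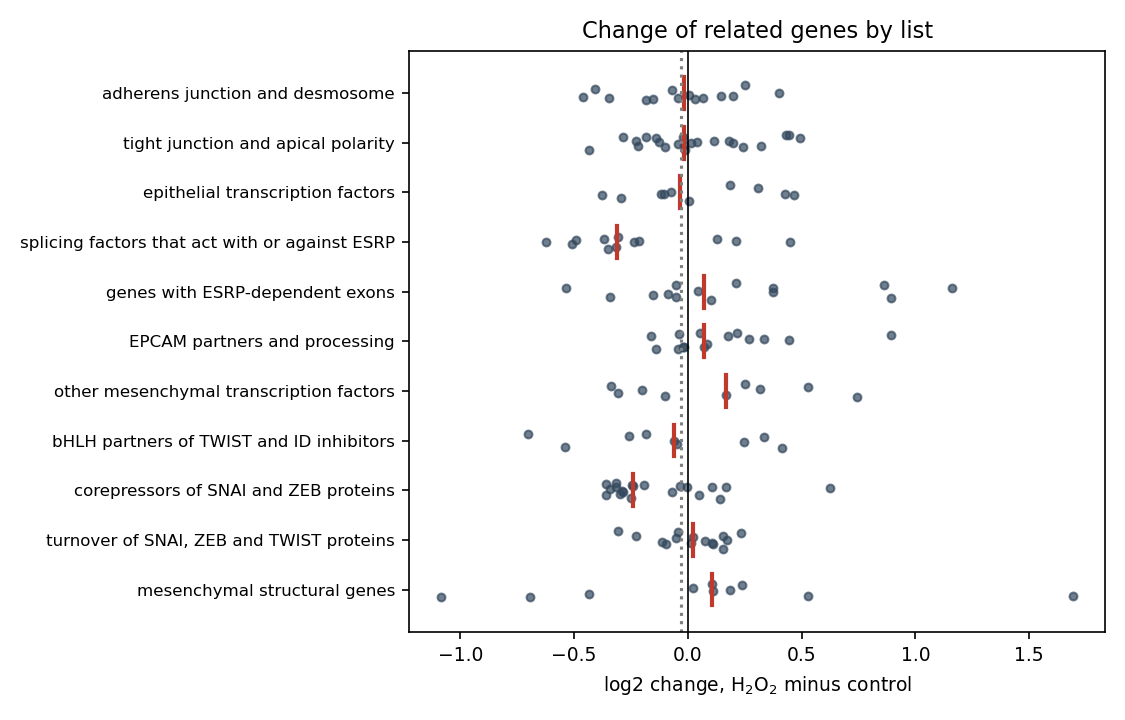
log2 change between H2O2 and control of the tested genes in 11 lists, 1 dot per gene (vertical scatter within a list carries no value), with the list's median as a red bar. The dotted line is the median of all genes tested, -0.03, and the medians run from -0.31 for splicing factors that act with or against ESRP to 0.17 for other mesenchymal transcription factors.

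Other mesenchymal transcription factors numbered 18, of which 9 were abundant enough to be tested. Of these, 5 had a positive change, and 2, both higher, had an unadjusted p under 0.05. The median was 0.17, or -0.08 without control 2 and -0.07 without treated 2. ETS1 had 16.8 and 13.2 FPKM in controls and 25.9 and 25.3 FPKM in treated libraries (limma adjusted p = 0.305). FOSL1, an AP-1 subunit, had 37.9 and 46.0 against 54.4 and 67.7 FPKM, SOX9 82.4 and 87.9 against 68.8 and 68.3 FPKM, and SCX 2.26 and 3.01 against 1.91 and 1.82 FPKM. The dimer partners, coactivators and ID inhibitors of TWIST numbered 9 tested, 6 with a negative change and a median of -0.06, or -0.36 without treated 1. ID2, which keeps bHLH factors from binding DNA, had 69.2 and 79.6 FPKM in controls and 35.8 and 57.1 FPKM in treated libraries (limma adjusted p = 0.409), while its relative ID1 had 60 and 44.7 against 70.0 and 68.7 FPKM. The acetyltransferase genes KAT5 and KAT2B had 55.6 and 44.9 against 41.3 and 28.0 FPKM and 1.13 and 1.18 against 1.52 and 1.93 FPKM.

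Corepressors recruited by SNAI and ZEB proteins mostly lay lower by small amounts. Of 20 tested, 15 had a negative change, and 11 had both treated libraries below both controls, where 24% of all genes did. The median was -0.24, or -0.099 without treated 2 and -0.05 after quantile normalization. After rescaling to TPM it was -0.064, where the median of all genes was 0.14. None of the lower genes had an unadjusted p under 0.05. WTIP, a LIM protein that binds Snail, was the 1 higher there, at 1.74 and 0.829 FPKM in controls and 2.46 and 2.44 FPKM in treated libraries. EHMT2 and SUV39H1, histone H3 methyltransferases, had 26.4 and 29.3 against 22.5 and 20.5 FPKM and 22.8 and 26.0 against 19.3 and 18.3 FPKM, and CTBP1, the partner of ZEB1, 145.2 and 127.7 against 117.1 and 98.2 FPKM. Genes for the turnover of SNAI, ZEB and TWIST proteins numbered 15 tested, 9 with a positive change, 0 at an unadjusted p under 0.05 and a median of 0.02. The 4 with the smallest p were the kinases PAK1 and ATM and the ubiquitin ligase genes SIAH1 and BTRC, with log2 changes of -0.31, 0.23, -0.23 and 0.17.

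Mesenchymal structural genes lay on both sides. Of 10 tested, 7 had a positive change, and 2 higher and 2 lower genes had an unadjusted p under 0.05. The median was 0.11, or -0.14 without treated 2, 0.29 without treated 1 and 0.05 without control 2. AXL, a receptor tyrosine kinase, had 14.4 and 12.2 against 20.8 and 18.4 FPKM. FN1, the fibronectin gene and a classical mesenchymal marker, was lower, at 4.75 and 7.07 FPKM in controls and 1.46 and 3.18 FPKM in treated libraries, a log2 change of -1.08 ± 0.31 (SE; limma adjusted p = 0.329). TPM1, a tropomyosin of actin filaments, was lower as well, at 50.6 and 48.4 against 26.7 and 34.1 FPKM (limma adjusted p = 0.311).

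Genes whose profile over the 4 libraries was most like that of CDH1 or VIM were found by the root-mean-square distance between log2(FPKM + 1) values centred on each gene's mean. For CDH1 they were HID1 (distance 0.0118; 9.71, 6.31, 15 and 10.7 FPKM in controls 1 and 2 and treated 1 and 2), GAA (0.0193) and INPP1 (0.0279), and 43 genes lay within 0.1. For VIM they were DUSP23 (0.0697), LGALS1 (0.0773; 733, 845, 443 and 1280 FPKM) and SDCBP (0.0804), and 4 genes lay within 0.1. With 4 libraries, such likeness is a description of these samples.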

How the data were processed

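Total RNA went into a directional library kit, per the labels' protocols. STAR 2.5, Cufflinks 2.2.1 and hg38 appear in the submitters' processing notes without a role or order. Annotation, strand setting and filters: not given in the sources used here. Each library has 1 FPKM value per gene, as deposited by the authors. Depth is unknown, so no count model or counting interval was used. Genes reaching 1 FPKM in 2 or more libraries were tested on log2(FPKM + 1) with limma 3.58.1 in R 4.3.3 (group as the only term, variance trend, two-sided, 2 residual and 6.28 total degrees of freedom), with Benjamini-Hochberg adjustment over all 11318 genes at a threshold of 0.05. The pseudocount of 1 understates changes of low genes. The model was tested on simulated data. The 10 members and the 11 lists were chosen with earlier results of these data known. The lists hold 189 symbols, 186 found in the table (1 by its Ensembl identifier), and QKI, TAGLN and LLGL2 are not analysed here. The rule named all members, up to 4 tested genes per list by smallest p, and the 3 genes most like CDH1 and VIM, and some genes it named are not reported here. Coordinates are from GENCODE release 29 (GRCh38), 1-based, and promoters from RefSeq. Plots used matplotlib 3.10.9 (Python 3.11.15). There were 13 alternatives: pseudocounts of 0.1 and 5, no filter, a mean of at least 5 FPKM, TPM, upper-quartile scaling, quantile normalization, no variance trend, the replicate number as a block, and each library left out.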

Additional observations from a re-analysis of the deposited data

How the results depend on the processing

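Where 0 genes were called over all genes, limma called 5 higher with a mean of at least 5 FPKM, 32 higher after rescaling to TPM, and 397 higher and 190 lower with the replicate number as a block. Without 1 library the calls ranged from 8 to 127 higher and from 0 to 13 lower, where a group's single library is taken to be as variable as the other group. The labels do not say that the numbers pair the libraries, and with 2 pairs this could not be settled. The correlation across genes of the difference between libraries 1 and 2 in the 2 groups was 0.451. With the replicate block, the adjusted p of CDH1 was 0.0405 and that of TWIST2 0.0386 by limma, with changes of 0.65 and 0.82 as before. In that fit too, TWIST2 was tested only because its treated libraries were high. Of 114 values of members under alternatives, 103 kept sign and side of the threshold and 9 turned sign. By setting these were ESRP1 under TPM (0.029), and ZEB1 (-0.032) and SNAI2 (-0.052) after quantile normalization. With 1 library left out, the change ranged from -0.50 to 0.20 for ESRP1 (positive without treated 2), -0.19 to 0.27 for ESRP2 (-0.056 without control 2 and lowest without treated 1), -0.66 to 0.83 for VIM (negative without treated 2), and -0.19 to 0.42 for SNAI2 (lowest without control 1, and -0.155 without treated 1). The cause was not tested. Of 143 list medians under alternatives, 28 moved by more than the spread between libraries. ZEB1, SNAI2 and TWIST2 have no value at a mean of at least 5 FPKM.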

Other observations

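Several genes that usually accompany the 2 identities were at or near 0 in all 4 libraries, chosen here after their values were seen. On the epithelial side, GRHL2, a transcription factor that activates CDH1 and ESRP1 in epithelia, was at most 0.0194 FPKM in each library, while its relative GRHL1 stood between 1.97 and 2.90 FPKM. CDH3, the P-cadherin gene beside CDH1 on chromosome 16, was at most 0.273 FPKM in each library. FGFR2, whose alternative exons are a classical target of the ESRP proteins, was at most 0.107 FPKM, whereas FGFR1 stood between 14.9 and 19.4 FPKM.

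On the mesenchymal side, CDH2, the N-cadherin gene, was listed at 0 in all 4 libraries and ZEB2 was at most 0.168 FPKM. From the list named mesenchymal structural genes, S100A4 and NES were abundant in both groups, while 9 of the 19 found were too low to be tested. S100A4 had 1216.8 and 1685.8 FPKM in controls and 1037.7 and 1083.8 FPKM in treated libraries (log2 change -0.43; limma adjusted p = 0.557). NES had 49.9 and 50.1 against 50.6 and 57.3 FPKM. The claudin CLDN7, a binding partner of EPCAM, had 19.2 and 6.70 FPKM in controls and 23.6 and 10.7 FPKM in treated libraries, so that libraries differed more within each group than the group means did.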
